A study of Mus musculus with 12 samples.

Results

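The genes of the Toll-like receptors and their adaptors were followed in mouse primary hepatic stellate cells, which store vitamin A beside the liver sinusoids and become matrix-producing myofibroblasts on activation. They were chosen by symbol as 7 receptor genes (Tlr1, Tlr2, Tlr3, Tlr4, Tlr6, Tlr7 and Tlr9), 2 adaptor genes (Myd88 and Ticam1) and the co-receptor gene Cd14. All 10 were among the 12081 genes listed. Cells were isolated from Hk2 fl/fl livers by density gradient, and all groups share that genotype, in which Cre recombinase can delete the gene of the glycolytic enzyme hexokinase 2. LAC cells were transduced with an adenovirus for Cre fused to eGFP and received 10 mM lactate for 24 h. KO cells received the Cre virus without lactate, and ACT cells an adenovirus for eGFP alone. LAC, KO and ACT cells were kept in culture for 6 days, whereas QS cells, taken as quiescent, were freshly isolated and received no virus. Each group had 3 libraries. The labels name no promoter for either virus. They also leave unsaid whether replicate libraries stem from different animals or dishes, so p-values measure only the variation between libraries, possibly technical. The age of the animals is not given in the sources used here.

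Toll-like receptors recognize molecules of microbes and of damaged cells. Those at the cell surface bind lipopolysaccharide (Tlr4 with Cd14) or lipoproteins (Tlr2 paired with Tlr1 or Tlr6), and those in endosomes bind nucleic acids (Tlr3, Tlr7 and Tlr9). All of these receptors but Tlr3 signal through the adaptor Myd88, Tlr3 signals through Ticam1, also called TRIF, and Tlr4 uses both. In liver the receptors are best known from Kupffer cells and other macrophages, while Tlr4 on stellate cells is known for making them more responsive to TGF-beta.

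Levels are read counts normalized to library size (CPM), and group values are mean ± SD of 3 libraries. Fold changes are differences on the log2(CPM + 1) scale, which understates changes of low genes, and genes with an adjusted p below 0.05 in limma, a linear model fitted across all genes of the table, are referred to as called. The estimated depth was 4.35 to 14.0 M reads per library, so that 3 reads correspond to 0.212 to 0.720 CPM, and the precision of low genes is limited by the shallower libraries. Hk2 was at 19.3 ± 0.575 CPM in LAC, 12.1 ± 1.48 CPM in KO, 181 ± 0.828 CPM in ACT and 71.2 ± 3.88 CPM in QS. The myofibroblast gene Acta2 was at 1434 CPM in LAC, 653 CPM in KO, 2656 CPM in ACT and 2.64 CPM in QS. The retinoid gene Lrat of quiescent stellate cells was at 14.0 CPM in LAC, 17.4 CPM in KO, 3.09 CPM in ACT and 352 CPM in QS. Markers of other liver cells differed between the groups. The summed level of 21 macrophage markers was 5839 to 5928 CPM in LAC, 840 to 865 CPM in KO, 21212 to 21626 CPM in ACT and 7254 to 7454 CPM in QS, and no marker was at 0 in every library of a group. Single genes weighed heavily in these sums. Lyz2 alone was at 9350 CPM in ACT and 513 CPM in QS, while the median log2 fold change of the markers in ACT against QS was 0.68. Mrc1 and Mertk, which rose in KO against ACT, were at 387 and 204 CPM in KO and made up most of the sum there. The 18 endothelial markers summed to 4359 to 4572 CPM in LAC, 8234 to 9149 CPM in KO, 686 to 701 CPM in ACT and 18520 to 18876 CPM in QS. In such bulk RNA, fewer cells of a type and less RNA per cell cannot be told apart.

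**Figure D1:**
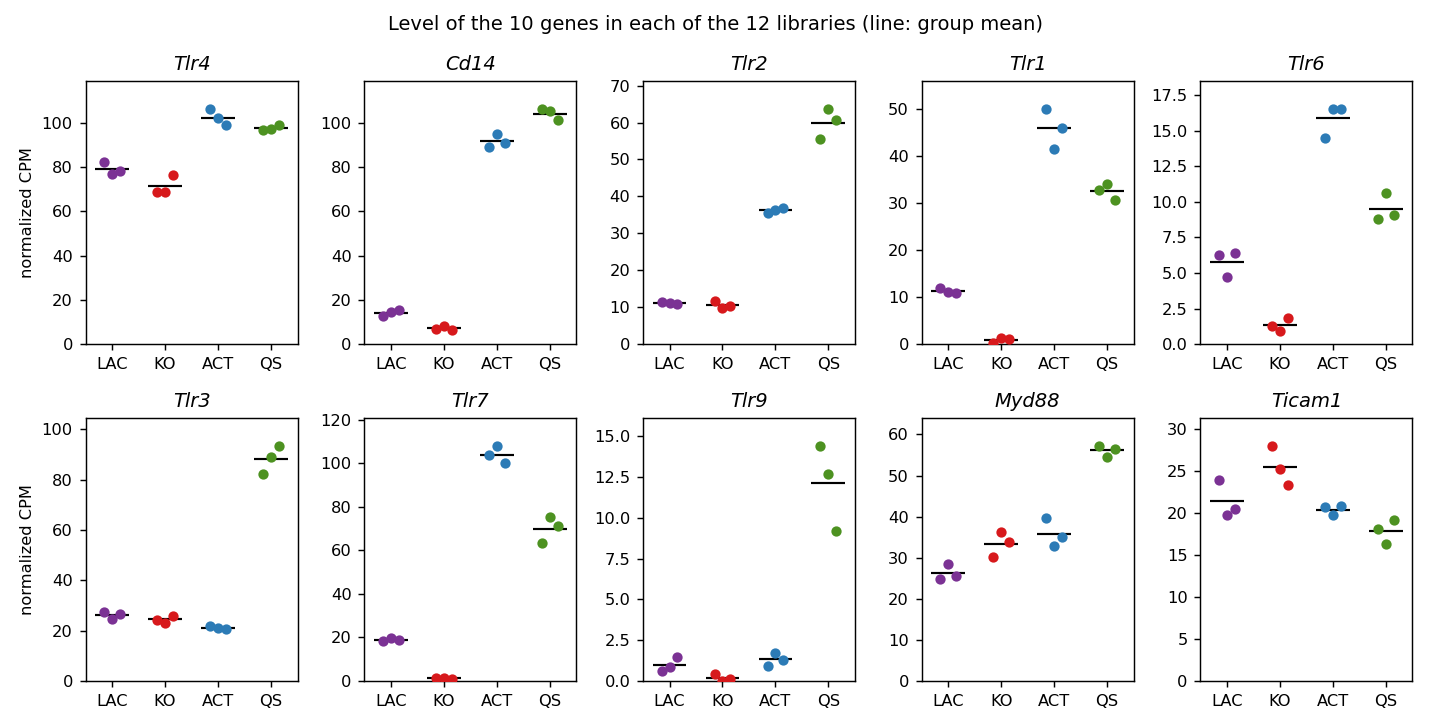
Normalized CPM (vertical axis, from 0, separate for each gene) of the 10 genes in the 12 libraries. Each point is a library, the line is the mean of the 3 libraries of a group. Tlr1, Tlr6, Tlr7 and Cd14 are lowest in KO and higher in LAC, Tlr2, Tlr3, Tlr9, Myd88 and Cd14 are highest in QS, and Tlr4 and Ticam1 vary least relative to their mean.

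The lipopolysaccharide receptor gene Tlr4 (mm10, chromosome 4, 66827584 to 66930284, plus strand) was present in every library at 68.6 to 106 CPM. It measured 82.2, 76.7 and 78.1 CPM in LAC, 68.8, 68.6 and 76.5 CPM in KO, 106, 102 and 98.7 CPM in ACT and 96.5, 97.2 and 99.1 CPM in QS. The ACT and QS libraries overlapped, and all of them lay above all LAC and KO libraries. Tlr4 fell in KO against ACT (log2 fold change -0.52, SE 0.0527, adjusted p = 1.07e-06) and in LAC against ACT (-0.37, adjusted p = 4.69e-05), which left it at 77.3% of the ACT mean in LAC and at 69.7% in KO. In ACT against QS it was not called (0.07, 95% interval -0.05 to 0.18, adjusted p = 0.278). LAC exceeded KO by 0.15 (adjusted p = 0.0382), and no library overlapped, but this call was lost without ACT replicate 2 (adjusted p = 0.0527), KO replicate 1 (0.119), KO replicate 2 (0.127), LAC replicate 1 (0.139) or LAC replicate 3 (0.0678). It was also lost with an equal total per library (0.0648) or with only the libraries of both groups in the fit (0.0812). Limma without the intensity trend lost it too (0.0639).

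Cd14 (chromosome 18, 36725067 to 36726798, minus strand) encodes the protein that hands lipopolysaccharide to Tlr4. Its level was 12.9, 14.4 and 15.6 CPM in LAC, 6.89, 8.07 and 6.55 CPM in KO, 88.9, 94.9 and 90.8 CPM in ACT and 106, 105 and 101 CPM in QS. Every group stood apart from its neighbours, in the order QS, ACT, LAC, KO. The fall in KO against ACT was -3.51 (SE 0.0862, adjusted p = 1.67e-13) and that in LAC against ACT -2.60 (adjusted p = 1.09e-11), while LAC was above KO by 0.90 (adjusted p = 1.48e-06). LAC thus held 15.6% and KO 7.83% of the ACT mean. ACT against QS, at -0.18, was not called (adjusted p = 0.0741), although it was called without KO replicate 2 (adjusted p = 0.0425). It was also called with a pseudocount of 5 (0.0365) or with only the libraries of both groups in the fit (0.00629). Ly96, the gene of the MD-2 protein that binds lipopolysaccharide on Tlr4, was looked at for its role after its values were seen. It was at 9.25 ± 1.07 CPM in LAC, 10.9 ± 1.91 CPM in KO, 10.1 ± 0.929 CPM in ACT and 25.4 ± 3.24 CPM in QS. Ly96 fell in ACT against QS (-1.25, adjusted p = 2.72e-06) and was not called in KO against ACT (0.09, adjusted p = 0.608).

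Tlr2 (chromosome 3, 83836272 to 83841767, minus strand) is the common partner of Tlr1 and Tlr6 in the receptors for lipoproteins. It measured 11.5, 11.2 and 11 CPM in LAC, 11.6, 9.89 and 10.4 CPM in KO, 35.4, 36.3 and 36.8 CPM in ACT and 55.5, 63.6 and 60.8 CPM in QS. LAC and KO libraries overlapped and lay below all others, and ACT lay below QS. The changes were -1.68 in KO against ACT (SE 0.0841, adjusted p = 4.20e-10), -1.60 in LAC against ACT (adjusted p = 1.44e-09) and -0.71 in ACT against QS (adjusted p = 3.08e-06). LAC against KO was not called, with a difference of 0.08 and a 95% interval from -0.11 to 0.26.

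Tlr1 (chromosome 5, 64924679 to 64933563, minus strand) and Tlr6 (chromosome 5, 64952031 to 64960097, minus strand) lie near each other and encode the partners that let Tlr2 tell kinds of lipoproteins apart. Tlr1 was at 12, 11.2 and 10.8 CPM in LAC, 0.252, 1.32 and 1.14 CPM in KO, 50, 41.6 and 46.1 CPM in ACT and 32.8, 34.0 and 30.7 CPM in QS. Tlr6 was at 6.23, 4.75 and 6.40 CPM in LAC, 1.27, 0.898 and 1.86 CPM in KO, 14.5, 16.5 and 16.5 CPM in ACT and 8.78, 10.6 and 9.08 CPM in QS. Both had the order ACT, QS, LAC, KO with no overlap between any of the groups. The KO levels of Tlr1 stood for only 3.0 to 8.0 estimated reads per library. Tlr1 fell in KO against ACT by 4.67 on the log2 scale (SE 0.186, adjusted p = 3.31e-11) and Tlr6 fell by 2.87 (SE 0.174, adjusted p = 3.68e-09). In LAC against KO, Tlr1 rose by 2.74 (adjusted p = 4.31e-08) and Tlr6 by 1.55 (adjusted p = 7.83e-06), to 24.6% and 36.5% of their ACT means. LAC stayed below ACT by a log2 fold change of -1.93 for Tlr1 (adjusted p = 9.52e-07) and -1.32 for Tlr6 (adjusted p = 2.15e-05). Against QS, ACT was higher by 0.69 for Tlr6 (adjusted p = 0.00278) and by 0.48 for Tlr1 (adjusted p = 0.0308). The Tlr1 call against QS was lost with a pseudocount of 0.1 (adjusted p = 0.263) or 0.5 (0.0935) and without QS replicate 1 (0.0588), QS replicate 3 (0.0801), ACT replicate 1 (0.101) or ACT replicate 3 (0.0700). Of the 31-base words in the annotated Tlr1 transcripts 20.0% also occur in transcripts of other genes, chiefly Tlr6, and of those of Tlr6 16.6%, chiefly Tlr1, so reads may have been split between them and their single values are uncertain.

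The endosomal receptor genes took separate courses. Tlr7 (chromosome X, 167304929 to 167330558, minus strand), a receptor for single-stranded RNA, was at 18.4, 19.5 and 19.0 CPM in LAC, 1.2, 1.32 and 0.855 CPM in KO, 104, 108 and 100 CPM in ACT and 63.5, 75.4 and 71.2 CPM in QS. All groups were apart, in the same order as for Tlr1 and Tlr6. Its fall in KO against ACT was the largest of the 10 genes on the log2(CPM + 1) scale at -5.64 (SE 0.098, adjusted p = 4.12e-15) and left 1.07% of the ACT mean. LAC exceeded KO by 3.25 (adjusted p = 7.14e-12) and reached 18.2% of the ACT mean, -2.39 on the log2 scale (adjusted p = 1.05e-10). ACT was above QS by 0.57 (adjusted p = 1.24e-04).

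Tlr3 (chromosome 8, 45395665 to 45411080, minus strand) binds double-stranded RNA and was highest in fresh cells. It measured 27.3, 24.7 and 26.6 CPM in LAC, 24.3, 23.2 and 25.9 CPM in KO, 21.8, 21.0 and 20.7 CPM in ACT and 82.1, 89.1 and 93.4 CPM in QS. All cultured groups lay far below QS and spanned 20.7 to 27.3 CPM. The fall in ACT against QS was -2.01 (SE 0.0736, adjusted p = 7.15e-12). Tlr3 rose slightly in LAC against ACT (0.30, adjusted p = 0.00415). The rise in KO against ACT (0.20, adjusted p = 0.0287) was lost without ACT replicate 2 (adjusted p = 0.0671), ACT replicate 3 (0.0803), KO replicate 1 (0.0525) or KO replicate 3 (0.0974), and with only the libraries of both groups in the fit (0.0582). LAC against KO was not called (0.09, 95% interval -0.07 to 0.25). An antisense gene, Gm45542, overlaps Tlr3 and shares 6.10% of its 31-base words, and although the library kit marks strand, the setting used in counting is not given in the sources used here.

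Tlr9 (chromosome 9, 106222598 to 106226883, plus strand), the receptor for unmethylated CpG DNA, was low outside QS. It was at 0.622, 0.844 and 1.46 CPM in LAC, 0.420, 0 and 0.142 CPM in KO, 0.919, 1.73 and 1.31 CPM in ACT and 14.4, 12.7 and 9.19 CPM in QS. LAC and ACT overlapped, KO lay below both and QS far above. The cultured libraries held 0 to 20 estimated reads of Tlr9, and the KO library at 0 allows up to 0.494 CPM, by counting error alone. Tlr9 fell in ACT against QS by 2.49 on the log2 scale (SE 0.245, adjusted p = 4.51e-07), and by 1.42 with a pseudocount of 5. KO was below ACT by -0.97 (adjusted p = 0.00353), a value that ran from -2.57 with a pseudocount of 0.1 to -0.28 with a pseudocount of 5. LAC was above KO by 0.73 (adjusted p = 0.0294), but this call was lost without KO replicate 2 (adjusted p = 0.0974), KO replicate 3 (0.0630), LAC replicate 2 (0.0532) or LAC replicate 3 (0.124). It was also lost with quantile normalization (0.0717) or with only the libraries of both groups in the fit (0.0539). The LAC against KO value of Tlr9 was 2.13 with a pseudocount of 0.1, 1.11 with 0.5 and 0.20 with 5, where it was not called (adjusted p = 0.174). LAC against ACT was not called (-0.24, adjusted p = 0.454). Markers of the plasmacytoid dendritic and B cells in which Tlr9 is best known were mostly not listed: of 10 dendritic markers 4 and of 10 lymphocyte markers 1 were in the table. The listed lymphocyte marker, Cd22, was at 9.73 CPM in LAC, 0.896 CPM in KO, 20.7 CPM in ACT and 33.2 CPM in QS. The dendritic markers Bst2, Clec9a and Zbtb46 were higher in QS than in ACT, and Itgax was lower. The part of such cells in the Tlr9 level was not tested.

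Of the further receptor genes, Tlr8 and Tlr13, both receptors for RNA and not among the 10 genes, were listed, and Tlr5, Tlr11 and Tlr12 were not. Tlr8 was at 24.7, 25.2 and 29.0 CPM in LAC, 0, 0 and 0.712 CPM in KO, 111, 107 and 104 CPM in ACT and 37.2, 45.2 and 43.8 CPM in QS. Tlr13 was at 90.0, 96.1 and 89.0 CPM in LAC, 5.46, 4.28 and 2.56 CPM in KO, 342, 350 and 346 CPM in ACT and 91.8, 111 and 94.2 CPM in QS. Both fell in KO against ACT, Tlr8 with a log2 fold change of -6.5 (adjusted p = 4.05e-13) and Tlr13 with -6.13 (adjusted p = 2.10e-13), and both were higher in LAC than in KO. Tlr8 had estimated reads in only 1 KO library, so its fold change depends on the pseudocount. They also rose in ACT against QS, Tlr8 by 1.33 (adjusted p = 8.15e-06) and Tlr13 by 1.80 (adjusted p = 9.86e-08). Unc93b1, named for its role after its values were seen, carries the endosomal receptors to their compartment. It was at 59.0 ± 0.665 CPM in LAC, 29.0 ± 2.93 CPM in KO, 151 ± 6.15 CPM in ACT and 117 ± 12.7 CPM in QS, and fell in KO against ACT (-2.35, adjusted p = 6.07e-12).

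Neither adaptor gene was called lower in KO against ACT. Myd88 (chromosome 9, 119335934 to 119341411, minus strand) measured 24.8, 28.5 and 25.6 CPM in LAC, 30.1, 36.2 and 33.9 CPM in KO, 39.7, 32.8 and 35.0 CPM in ACT and 57.2, 54.6 and 56.4 CPM in QS. KO and ACT overlapped, LAC lay below both and QS above. Myd88 fell in ACT against QS (-0.64, SE 0.0883, adjusted p = 1.59e-05), in LAC against KO (-0.33, adjusted p = 0.00840) and in LAC against ACT (-0.43, adjusted p = 0.00103). KO against ACT was not called (-0.10, 95% interval -0.29 to 0.09, adjusted p = 0.358). Its transcripts share 8.93% of their 31-base words with Acaa1a, a gene on the other strand, so part of the Myd88 level is uncertain. Ticam1 (chromosome 17, 56269319 to 56276786, minus strand) measured 23.9, 19.8 and 20.5 CPM in LAC, 28.0, 25.2 and 23.4 CPM in KO, 20.7, 19.8 and 20.8 CPM in ACT and 18.1, 16.3 and 19.2 CPM in QS. LAC overlapped with both KO and ACT, and QS was lowest. Ticam1 rose in KO against ACT (0.31, SE 0.101, adjusted p = 0.0171), a call lost without ACT replicate 2 (adjusted p = 0.0557) or KO replicate 1 (0.0793). It was not called in LAC against KO (-0.24, adjusted p = 0.0683), but was without KO replicate 3 (0.0433) or LAC replicate 1 (0.0334). An equal total per library (0.0485) or quantile normalization (0.0441) also gave that call. LAC against ACT (0.06, adjusted p = 0.654) and ACT against QS (0.19, adjusted p = 0.112) were not called. Ticam2, the bridging adaptor that links Tlr4 to Ticam1, is not among the 10 genes and took another course. Its level was 5.52 ± 0.377 CPM in LAC, 0.60 ± 0.307 CPM in KO, 18.2 ± 0.469 CPM in ACT and 5.63 ± 1.00 CPM in QS (KO against ACT -3.60, adjusted p = 2.24e-10). Tirap, which links Tlr2 and Tlr4 to Myd88 and was also named for its role afterwards, rose in KO against ACT (0.42, adjusted p = 0.00116).

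**Figure D2:**
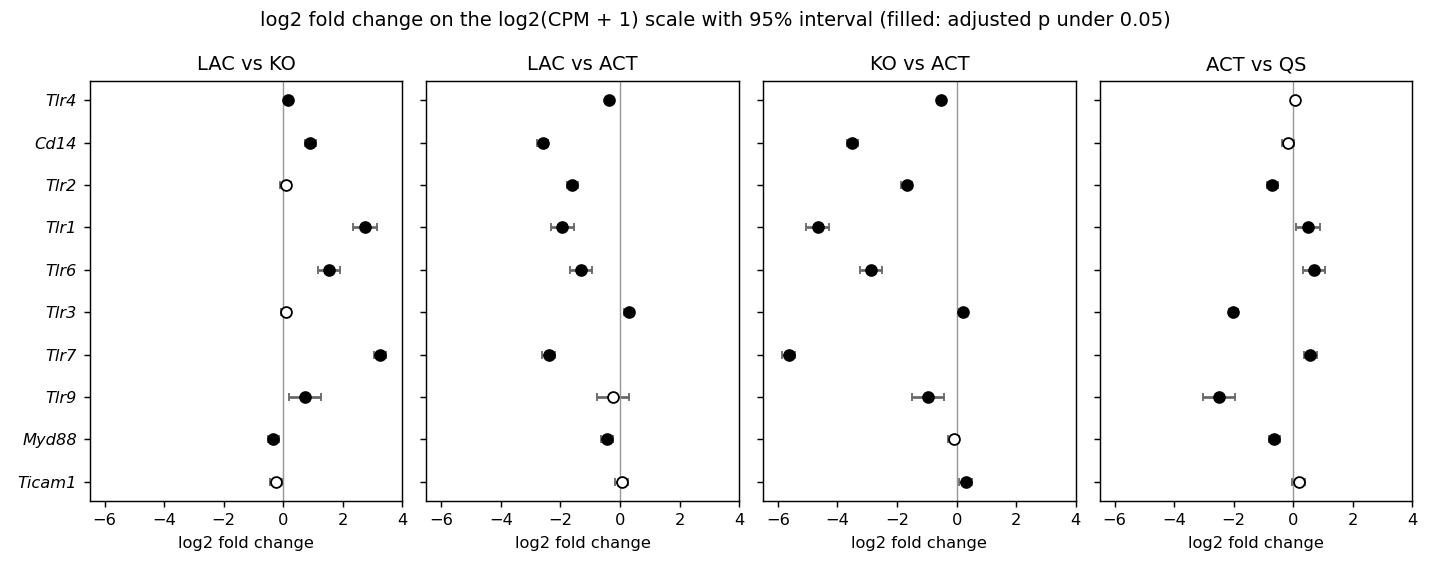
Log2 fold change on the log2(CPM + 1) scale (horizontal axis) of the 10 genes (vertical axis) in each comparison, with 95% intervals from limma; filled points are called. In KO vs ACT the values run from -5.64 for Tlr7 to 0.31 for Ticam1, and in LAC vs KO from -0.33 for Myd88 to 3.25 for Tlr7.

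In KO against ACT 7 of the 10 genes were called lower, where 26.3% of all genes were, and 2 were called higher, where 36.0% of all genes were. Called in either direction were 9 of the 10, against 62.4% of all genes, and the KO and ACT libraries did not overlap for 9, against 69.2%. The median log2 fold change of the 10 genes was -1.32, against 0.07 over all genes. The count of 2 higher, Tlr3 and Ticam1, was 0 without ACT replicate 2 or KO replicate 1, and 1 without ACT replicate 3 or KO replicate 3. In LAC against KO 6 were called higher and 1 lower, where 20.0% and 21.0% of all genes were, with medians of 0.44 for the 10 genes and -0.02 for all genes. Either way 7 were called, against 41.0% of all genes, and 7 had no overlap, against 52.2%. The count of 6 higher was 4 without KO replicate 2 or LAC replicate 3, where Tlr4 and Tlr9 lost their call. The 1 lower gene, Myd88, was joined by Ticam1 without KO replicate 3 or LAC replicate 1, giving 2. In LAC against ACT 7 were called lower and 1 higher, where 21.7% and 27.8% of all genes were, with medians of -0.87 and 0.03. Either way 8 were called, against 49.5% of all genes, and 8 had no overlap, against 62.8%. In ACT against QS 3 were called higher and 4 lower, where 38.0% and 35.5% of all genes were, with medians of -0.06 and 0.03. Either way 7 were called, against 73.5% of all genes, and 9 had no overlap, against 76.3%, so both shares lay near those of all genes. The count of 3 higher was 2 without QS replicate 1, QS replicate 3, ACT replicate 1 or ACT replicate 3, through the loss of Tlr1. KO against ACT, LAC against KO and LAC against ACT share libraries with each other, and ACT against QS shares the ACT libraries, so their values are not independent of one another. Every KO and LAC library received Cre and no ACT library did, so deletion of Hk2 and exposure to Cre cannot be told apart.

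Per length, the order of the genes also differed between groups. Divided by the length of the longest annotated coding transcript, the level in CPM per kb was highest for Tlr4 among the 10 genes in LAC (19.4), followed by Myd88 (13.4) and Cd14 (8.71). In KO it was also highest for Tlr4 (17.5), next to Myd88 (17.1), and under 0.4 for Tlr1 (0.299), Tlr6 (0.366), Tlr7 (0.286) and Tlr9 (0.0539). In ACT Cd14 was highest (55.8), before Tlr7 (26.7) and Tlr4 (25.1), and in QS likewise Cd14 (63.3), before Myd88 (28.6) and Tlr4 (23.9). Which transcript was read is not known, and with the shortest annotated coding transcript of each gene the order would differ, Tlr7 for example reaching 284 CPM per kb in ACT.

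**Figure D3:**
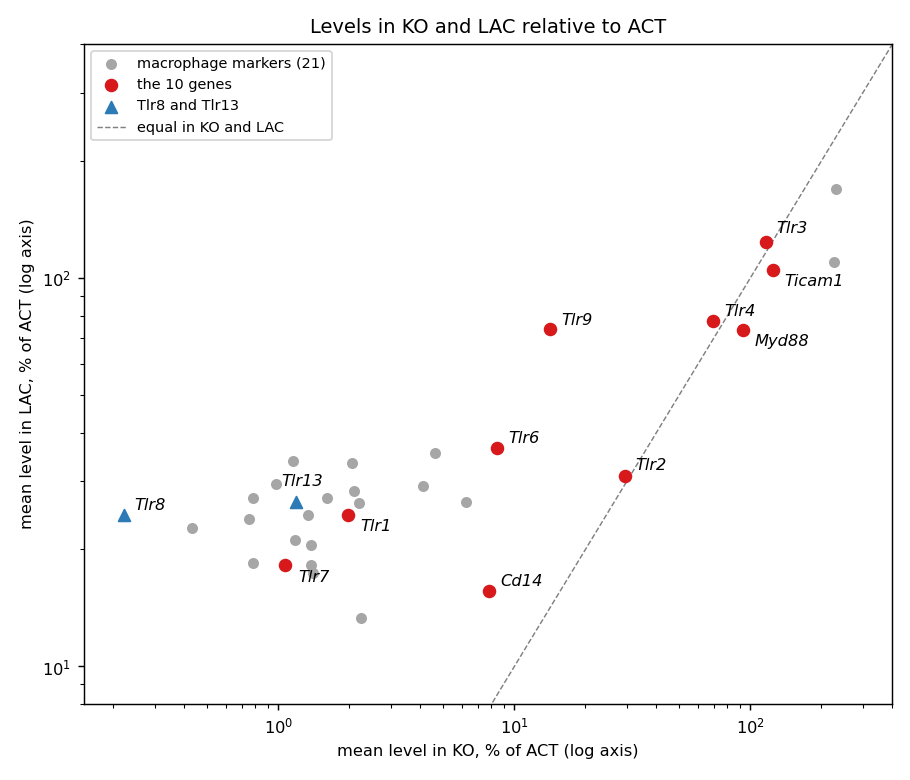
Mean level in LAC (vertical) against mean level in KO (horizontal), each as a percentage of the ACT mean, on log axes. Red points are the 10 genes, blue triangles Tlr8 and Tlr13, grey points 21 macrophage markers, and the dashed line marks equal levels in KO and LAC. Tlr1, Tlr7 and Tlr13 lie among the macrophage markers at 18.2% to 26.5% in LAC and 1.07% to 1.97% in KO, Tlr8 lies left of them at 0.221% in KO, and Tlr2, Tlr3, Tlr4, Myd88 and Ticam1 lie near the line.

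Macrophage markers moved with part of the genes. Of the 21 markers 19 fell and 2 rose in KO against ACT, with a median of -5.81, and 18 rose and 2 fell in LAC against KO, with a median of 3.66. Their median level was 26.5% of ACT in LAC and 1.40% in KO. The 2 that rose in KO were Mrc1 and Mertk, of which Mrc1 is also known from sinusoidal endothelium. Among the defining markers, Adgre1 (F4/80) was at 67.4 ± 2.43 CPM in LAC, 2.84 ± 0.720 CPM in KO, 364 ± 4.65 CPM in ACT and 322 ± 14.9 CPM in QS. Csf1r was at 157 ± 1.78 CPM in LAC, 11.7 ± 2.07 CPM in KO, 556 ± 12.5 CPM in ACT and 300 ± 12.2 CPM in QS. In LAC, Cd14 at 15.6%, Tlr7 at 18.2%, Tlr1 at 24.6% and Tlr2 at 31% lay within the 13.3% to 35.5% of ACT spanned by the 19 markers that fell in KO, and Tlr6 (36.5%), Myd88 (73.4%), Tlr9 (73.9%), Tlr4 (77.3%), Ticam1 (105%) and Tlr3 (124%) lay above it. In KO, Tlr1 at 1.97% and Tlr7 at 1.07% of ACT lay within the 0.432% to 6.22% spanned by the same 19, and Cd14 (7.83%), Tlr6 (8.47%), Tlr9 (14.2%), Tlr2 (29.4%), Tlr4 (69.7%), Myd88 (93.3%), Tlr3 (116%) and Ticam1 (125%) lay above it. Of the 8 Kupffer cell markers, all fell in ACT against QS (median -2.98), and their sum was 103 to 110 CPM in LAC, 176 to 193 CPM in KO, 551 to 561 CPM in ACT and 3575 to 3612 CPM in QS. In KO against ACT 6 of them fell and 1, Slc40a1, rose (2.10, adjusted p = 1.89e-12). Slc40a1 alone was at 85.6 CPM in LAC, 165 CPM in KO, 37.8 CPM in ACT and 863 CPM in QS. It made up most of the LAC and KO sums. In KO against ACT endothelial markers went the opposite way to the macrophage list, with 17 of 18 higher, and hepatocyte markers likewise with 16 of 16. In LAC against ACT 17 endothelial markers were higher and 0 lower, whereas 0 hepatocyte markers were higher and 11 lower. Over all genes, 26.3% were called lower and 36.0% higher in KO against ACT, and 20.0% higher and 21.0% lower in LAC against KO. In LAC against ACT 27.8% of all genes were higher and 21.7% lower, and in ACT against QS 35.5% were lower. The hepatocyte markers summed to 1.45 to 2.01 CPM in LAC, 317 to 339 CPM in KO, 29.7 to 34.6 CPM in ACT and 2194 to 2238 CPM in QS. The part of these cells in the changes of the 10 genes was not tested.

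Tlr1, Tlr6 and Tlr7 shared the order ACT, QS, LAC, KO. In KO against ACT, Tlr6 fell less (-2.87) than Tlr1 (-4.67) and Tlr7 (-5.64). Spi1, the gene of the myeloid transcription factor PU.1, was at 19.1 ± 0.888 CPM in LAC, 0.979 ± 0.785 CPM in KO, 80.3 ± 2.01 CPM in ACT and 40.0 ± 4.35 CPM in QS. The promoters were searched on both strands for 3 motifs. These were the PU.1 core GAGGAA, the interferon-stimulated response element, written as GAAA, any 2 bases and GAAA, and a kappa B site, written as GGGACT followed directly by TTCC. Matches to one motif could overlap. RefSeq windows of 250 bases before to 50 after the start (GRCm38.p6) matched 7 of the 10 genes, with 9 windows. The promoters of Tlr4, Tlr7 and Cd14 were not analysed here. The windows of Tlr2 and Tlr3 held none of the motifs. The PU.1 core was found in Tlr1, Tlr9 and Ticam1 and in 28.3% of all 32851 promoter windows, the interferon element in Tlr6 and Myd88 and in 3.44%, and this kappa B sequence in none of the 9 and in 0.155%. Windows of Tlr1 and Tlr6, neighbours with the same order of groups, and of Tlr9 and Myd88 are given 5′ to 3′ on the gene's strand. Each window shown was chosen because it holds a match, and matches to the first 2 motifs are in capitals.
Tlr1, chr5:64933509-64933808, minus strand: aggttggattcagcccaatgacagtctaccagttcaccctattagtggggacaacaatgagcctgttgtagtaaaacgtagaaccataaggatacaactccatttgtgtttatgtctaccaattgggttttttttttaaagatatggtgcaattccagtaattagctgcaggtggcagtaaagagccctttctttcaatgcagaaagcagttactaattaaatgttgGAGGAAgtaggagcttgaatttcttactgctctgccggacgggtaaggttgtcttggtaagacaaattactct
Tlr6, chr5:64959117-64959416, minus strand: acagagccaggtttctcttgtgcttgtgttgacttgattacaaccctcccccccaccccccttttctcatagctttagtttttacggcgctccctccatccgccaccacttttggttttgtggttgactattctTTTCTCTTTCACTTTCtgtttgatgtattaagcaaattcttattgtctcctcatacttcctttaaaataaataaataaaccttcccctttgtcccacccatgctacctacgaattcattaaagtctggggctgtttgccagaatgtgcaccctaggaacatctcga
Tlr9, chr9:106222348-106222647, plus strand: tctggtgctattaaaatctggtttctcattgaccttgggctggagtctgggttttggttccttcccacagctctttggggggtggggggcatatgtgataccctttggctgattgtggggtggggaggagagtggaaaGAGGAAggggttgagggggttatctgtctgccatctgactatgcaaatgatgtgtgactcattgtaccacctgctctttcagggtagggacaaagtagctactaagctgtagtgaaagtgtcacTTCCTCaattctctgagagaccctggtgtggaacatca
Myd88, chr9:119339969-119340268, minus strand: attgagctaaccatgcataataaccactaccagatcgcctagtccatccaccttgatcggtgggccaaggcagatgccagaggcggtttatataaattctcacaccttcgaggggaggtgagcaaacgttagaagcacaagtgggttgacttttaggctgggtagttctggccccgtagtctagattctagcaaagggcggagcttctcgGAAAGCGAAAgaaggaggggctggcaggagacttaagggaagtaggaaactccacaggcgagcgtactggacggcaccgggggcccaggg
The match began 23 bases before the start in Tlr1, at 112 bases before and 13 bases after it in Tlr9 and 40 bases before it in Myd88, and Tlr6 held overlapping matches at 116 and 110 bases before its start. A further window of Tlr1 and another of Tlr6 held none of the motifs. The match in Ticam1, whose window is not shown, began 30 bases before its start. A match describes these letters and does not show that a factor binds there.

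Genes with the most similar course were sought among 10735 genes with a mean of at least 5 CPM, by the root mean square difference of centred log2(CPM + 1) values over the 12 libraries. For Tlr7 the nearest were Clec12a (0.164), Cd180 (0.183) and Evi2a (0.183), and for Tlr1 they included Ptpn6 (0.217) and Lair1 (0.265). Cd180, which encodes a Toll-like receptor relative of B cells and macrophages, was at 31.3 CPM in LAC, 1.93 CPM in KO, 125 CPM in ACT and 107 CPM in QS. For Tlr6 they were Pygl (0.179), Mgat4a (0.220) and Smpdl3a (0.225), and for Cd14 they included Bcl2a1a (0.272) and Cfp (0.337). Tlr2 was closest to Atp8a1 (0.177), Tmem106a (0.186) and Kctd12 (0.191), and Tlr4 to Atp6v1g1 (0.0468), Osbpl11 (0.0701) and Cdc42 (0.0726). Tlr3 was closest to Trim25 (0.119), a ubiquitin ligase of antiviral signalling, Ralgapa2 (0.120) and Plscr4 (0.123), and Tlr9 to Samd9l (0.276), Cp (0.295) and Trex1 (0.299). Of the adaptors, Myd88 was closest to Vamp3 (0.0968), Gsr (0.103) and Casp2 (0.105), and Ticam1 to Nol6 (0.0611), Nup214 (0.0736) and Ptbp1 (0.0805). The 12 libraries fall into 4 groups, so these values chiefly compare group means.

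**Figure D4:**
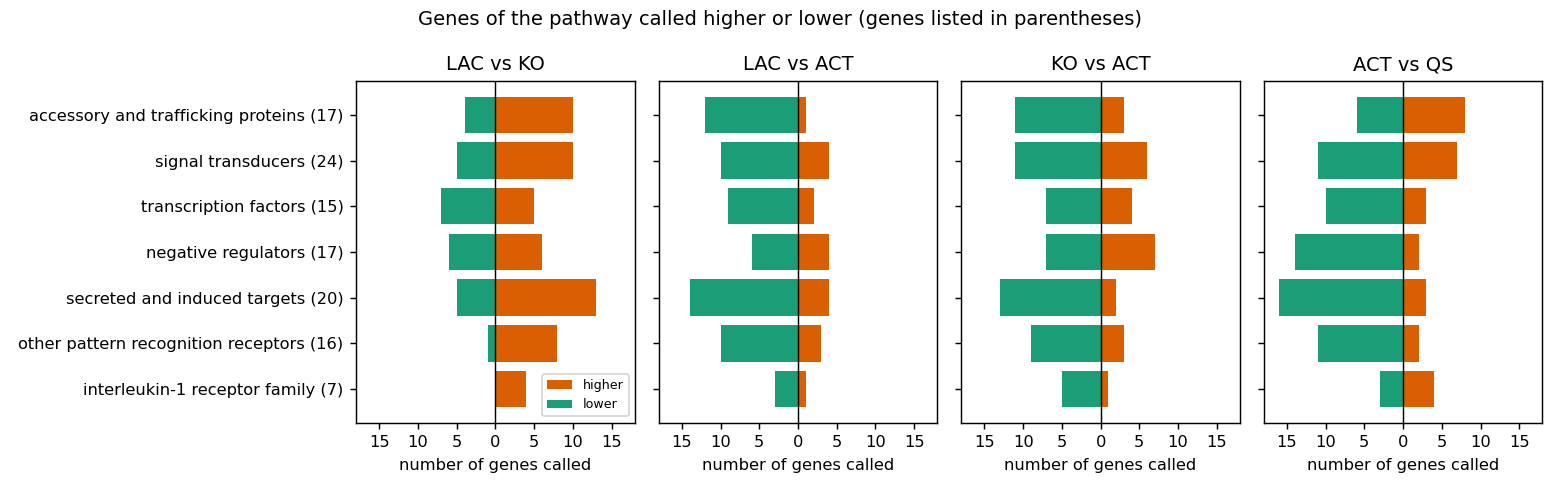
Number of genes called higher (right) and lower (left) in each comparison for 7 lists of the pathway, with the number of genes listed in parentheses. In KO vs ACT more genes were lower than higher in every list but the negative regulators, with 7 in each direction. Over all genes 26.3% were lower and 36.0% higher in KO vs ACT.

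Other genes of the pathway were taken from lists that leave out the 10 genes and were drawn up by role. Over all genes, 26.3% were called lower and 36.0% higher in KO against ACT, with a median of 0.07. In KO against ACT 11 of 17 accessory and trafficking genes fell and 3 rose (median -1.76), 11 of 24 signal transducers fell and 6 rose (-0.16), and 7 of 15 transcription factors fell and 4 rose (-0.34). Ctss, a protease that cuts endosomal receptors and also one of the macrophage markers, fell most in its list, with 738 ± 21 CPM in LAC, 24.7 ± 1.96 CPM in KO, 2511 ± 36.2 CPM in ACT and 549 ± 22.9 CPM in QS. Btk, a kinase of B cells and myeloid cells, fell most among transducers (-5.13, adjusted p = 1.53e-12), and Map3k7, the TAK1 kinase downstream of Myd88, rose most (0.82, adjusted p = 1.29e-09). Map3k7 was at 209 ± 7.29 CPM in LAC, 209 ± 5.04 CPM in KO, 118 ± 1.07 CPM in ACT and 126 ± 7.33 CPM in QS. Spi1 fell most among transcription factors (-5.43, adjusted p = 1.47e-11) and Jun rose most (0.53, adjusted p = 2.57e-06).

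In KO against ACT 7 of 17 negative regulators were called higher and 7 lower (median 0.05). Of all genes 36.0% were higher and 26.3% lower, with a median of 0.07, near that of this list. Socs3, an inhibitor of cytokine signalling, rose most, with 16.9 ± 0.318 CPM in LAC, 36 ± 1.11 CPM in KO, 7.38 ± 0.142 CPM in ACT and 56.3 ± 3.06 CPM in QS, and Tnip3 fell most (-3.93, adjusted p = 5.90e-11). Of 20 secreted and induced targets 13 fell and 2 rose (median -1.65). Saa3, a serum amyloid gene, fell most, with 4.60 ± 0.294 CPM in LAC, 0.150 ± 0.143 CPM in KO, 178 ± 9.73 CPM in ACT and 29.0 ± 1.93 CPM in QS, and the adhesion gene Icam1 rose most (1.84, adjusted p = 2.26e-12).

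In LAC against KO 13 of 20 targets rose and 5 fell (median 0.58), 10 of 17 accessory genes rose and 4 fell (0.69), and 10 of 24 transducers rose and 5 fell (0.04). Il6, the gene of an inflammatory cytokine, rose most among targets, with 17.2 ± 2.67 CPM in LAC, 2.39 ± 0.146 CPM in KO, 9.56 ± 0.671 CPM in ACT and 7.64 ± 1.49 CPM in QS, and LAC also exceeded ACT (0.78, adjusted p = 9.16e-04). Cxcl10 fell most (-1.46, adjusted p = 1.60e-06). Tnfaip3, which encodes the A20 enzyme that restrains this signalling, rose most among the negative regulators with at least 5 CPM in LAC or KO (0.81, adjusted p = 6.47e-07), and Socs3 fell most (-1.04, adjusted p = 8.56e-08). Below that level, Tnip3 rose by 1.66 (adjusted p = 2.38e-06) and Cd300lf by 1.03 (adjusted p = 0.00057). Of 15 transcription factors 5 rose and 7 fell, with Spi1 the largest rise (3.41, adjusted p = 9.51e-09) and Relb the largest fall (-0.59, adjusted p = 0.00194). Scavenger receptor gene Cd36, which helps Tlr2 ligands reach the receptor, fell most among accessory genes (-1.95, adjusted p = 4.09e-07). In LAC against ACT 12 of 17 accessory genes, 10 of 24 transducers, 9 of 15 transcription factors, 6 of 17 negative regulators and 14 of 20 targets were lower, and in the same order of lists 1, 4, 2, 4 and 4 were higher. Of all genes, 21.7% were called lower and 27.8% higher in LAC against ACT. Marco, a scavenger receptor of macrophages that is also among the Kupffer markers, fell most of the targets in that comparison (-5.88, adjusted p = 1.41e-13).

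In ACT against QS 16 of 20 targets fell and 3 rose (median -2.06), and 14 of 17 negative regulators fell and 2 rose (-1.44). Of 15 transcription factors 10 fell and 3 rose (-1.07). Over all genes, 35.5% were called lower and 38.0% higher (0.03), or 73.5% either way. Cxcl10, an interferon-induced chemokine gene, was at 1.73 ± 0.0913 CPM in ACT and 381 ± 2.46 CPM in QS (-7.13, adjusted p = 7.36e-15). Irf7, which drives interferon genes downstream of Tlr7 and Tlr9, was at 11.2 ± 0.450 CPM in ACT and 530 ± 24.3 CPM in QS (-5.44, adjusted p = 9.47e-14). Trim30a fell most among negative regulators (-3.28, adjusted p = 5.19e-14). Ptgs2, the inducible cyclooxygenase, rose most among targets, with 268 ± 8.49 CPM in ACT and 4.94 ± 1.15 CPM in QS. Of 17 accessory genes 8 rose, most of all the cathepsin gene Ctsk (3.48, adjusted p = 3.73e-14), and 6 fell, most of all Lbp, which encodes the serum protein that binds lipopolysaccharide (-2.62, adjusted p = 2.16e-08). Of 24 transducers 7 rose and 11 fell, with Ticam2 the largest rise (1.54, adjusted p = 1.55e-06) and Map3k8 the largest fall (-1.66, adjusted p = 5.74e-07). QS cells differed from ACT cells in virus, culture and time together, and these cannot be told apart.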

How the data were processed

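Stranded mRNA libraries were made from total RNA of the cells, per the labels' protocols. The deposited table holds read counts that the authors normalized to library size (CPM) for 12081 genes in 12 libraries. It was recorded as a signal, since the totals of the deposited columns run from 959233 to 1047042 and so carry a further scaling factor. FastQC 0.11.8, cutadapt 1.18, kallisto 0.44.0, edgeR 3.8 and build mm10 are named in the submitters' processing notes, with no role stated. No gene of the table has fewer than 3 libraries at 1 CPM or more. Only 19.7% to 25.7% of positive values lay within 0.01 of a whole read, so no count test was run. Libraries of a group differed beyond sampling noise (chi-square per gene 2.23 to 4.62) and were kept apart.

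Limma 3.58.1 in R 4.3.3 was fitted to log2(CPM + 1) with 4 group means over all 12 libraries, empirical Bayes moderation along the intensity trend and Benjamini-Hochberg adjustment over all genes in each of 4 comparisons. The procedure was also run on simulated libraries of equal depth with few changed genes. The real libraries differ in depth and in many genes, so that run does not show how reliable the calls are here. The 10 genes and all lists were chosen with earlier results of these data known. From each list and comparison the called genes with the largest rise and fall were named if they reached 5 CPM and the groups did not overlap, and others are marked as chosen for their role. Coordinates and transcripts are from GENCODE M21 (mm10), promoters from RefSeq (GRCm38.p6). Alternatives were other pseudocounts, filters, scalings, moderation, groups in the fit, a replicate block and leaving out each library. Some of the genes nearest in course to the 10 are not reported here.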

Additional observations from a re-analysis of the deposited data

How the results depend on the processing

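Over the log2 fold changes of the 10 genes, 837 of 876 values under the alternatives kept both direction and call, 28 lost the call, 10 gained it and 1 changed sign. The sign changed for Ticam1 in LAC against ACT, a difference not called with all libraries, which was -0.017 without LAC replicate 1 and ran from there to 0.11 over the fits that left out a library. The number of genes called higher in ACT against QS was 5 with an equal total per library, where Tlr4 (0.15) and Ticam1 (0.26) were added, and 2 to 3 when a library was left out. The number called higher in KO against ACT was 1 with 2 groups in the fit and 0 to 2 when a library was left out. The number called lower in LAC against KO was 2 with an equal total or with quantile normalization and 1 to 2 when a library was left out. The cause of these shifts was not tested. The remaining counts, over the 10 genes and over all genes, stayed within 1.5 times under the alternatives run. The filter at a mean of 5 CPM removed Tlr9, so it gave no value there. Groups share replicate numbers, and same-numbered libraries had correlations of -0.055 to 0.143 over 18 pairs (median 0.02, deviations from group means, genes of at least 10 CPM). Libraries with different numbers had -0.109 to 0.105 over 36 pairs (median -0.016). Of the 12 libraries, 7 correlated best with their own number. These values do not settle whether the numbers mark pairs. With the replicate block the 10 genes kept every call, for example 7 lower and 2 higher in KO against ACT. Depth limits Tlr9 in all cultured groups and Tlr1, Tlr6 and Tlr7 in KO, whose fold changes move with the pseudocount: with a pseudocount of 5 the KO against ACT values of Tlr1 and Tlr6 were -3.11 and -1.72, and the LAC against KO values of Tlr1, Tlr6 and Tlr7 were 1.47, 0.77 and 1.97.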

Other observations

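Sensors outside the Toll-like family were taken from another list of 16 genes. In KO against ACT 9 fell and 3 rose (median log2 fold change -1.20), and in LAC against KO 8 rose and 1 fell (0.30). In LAC against ACT 10 fell and 3 rose (-0.77), and in ACT against QS 11 fell and 2 rose (-1.39). Over all genes, 26.3% fell and 36.0% rose in KO against ACT, and 20.0% rose and 21.0% fell in LAC against KO. In LAC against ACT 21.7% of all genes fell and 27.8% rose, and in ACT against QS 35.5% fell and 38.0% rose. Ddx58, the gene of the cytosolic RNA sensor RIG-I, was at 69.5 ± 2.28 CPM in LAC, 64.8 ± 0.842 CPM in KO, 41.9 ± 1.72 CPM in ACT and 282 ± 6.51 CPM in QS, and rose in KO against ACT (0.62, adjusted p = 3.48e-08). Nod1, a sensor of bacterial cell wall pieces, was at 32.5 ± 1.39 CPM in LAC, 45.1 ± 1.58 CPM in KO, 31 ± 1.32 CPM in ACT and 159 ± 4.99 CPM in QS. Clec7a, the beta-glucan receptor dectin-1 of myeloid cells, fell in KO against ACT (-5.80, adjusted p = 1.39e-06) and varied within groups, with 41.9 ± 6.16 CPM in LAC, 6.38 ± 7.75 CPM in KO, 288 ± 74.7 CPM in ACT and 18.8 ± 14.5 CPM in QS.

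Receptors and ligands of the interleukin-1 family, whose receptors also signal through Myd88, were listed for 7 of 9 genes. In KO against ACT 5 fell and 1 rose (median -0.88), and in LAC against KO 4 rose and none fell (0.63). Over all genes, 26.3% fell and 36.0% rose in KO against ACT, and 20.0% rose and 21.0% fell in LAC against KO. Il1rn, the receptor antagonist, was at 16.0 ± 0.589 CPM in LAC, 2.94 ± 0.188 CPM in KO, 115 ± 4.82 CPM in ACT and 633 ± 11.6 CPM in QS. Il33, an alarmin, was at 21.4 ± 0.566 CPM in LAC, 15.3 ± 1.17 CPM in KO, 9.54 ± 0.460 CPM in ACT and 19.8 ± 1.26 CPM in QS, and rose in LAC against KO (0.46, adjusted p = 0.00169) and in KO against ACT (0.62, adjusted p = 6.46e-05).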
